A study of Mus musculus with 9 samples.

Results

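Of 38 listed genes of insulin receptor, PI3K and AKT signaling, 37 were measured in the alpha TC6 cell line. With an insulin receptor substrate knocked down, 6 of them passed the test in at least 1 comparison, both shRNA targets included. Of all 22180 genes, 2.98% were called higher and 3.68% lower in alphaIRS1KD against control cells. These shares were 0.893% and 0.694% in alphaIRS2KD against control cells, and 1.71% and 2.42% in alphaIRS1KD against alphaIRS2KD cells. Irs1 and Irs2 were each lower in the line that carried their own shRNA, by 1.88-fold and 1.49-fold. Beyond these targets, the lipid phosphatase gene Inppl1 was higher in both lines, with a fold of 1.37 for alphaIRS1KD and of 1.23 for alphaIRS2KD. The PI3K regulatory subunit gene Pik3r1 was 1.15-fold higher in alphaIRS1KD cells. Tbc1d4, which encodes an AKT substrate, was 1.92-fold higher and Socs2, a feedback gene, 1.61-fold higher in alphaIRS2KD cells. In alphaIRS1KD cells Socs2 had a log2 difference of 0.46 that missed the threshold (adjusted p = 0.076, limma). Of 22 alternative settings, some change only the threshold of the main fit. Tbc1d4 failed the test in 1 of the 22, Socs2 in 11, Pik3r1 in 12 and Inppl1 in alphaIRS2KD cells in 13. Transcripts of the receptor, the adaptors, the catalytic PI3K subunits and the AKT kinases did not pass the test in either line. The genes were chosen by their place in the pathway, with earlier results of these data known. Each was matched to the arrays by its symbol. A gene with several probes was read from the probe with the highest mean over the 9 arrays. The only Gsk3a probe names a further gene, so Gsk3a was not analysed here.

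Alpha TC6 is a mouse alpha-cell line derived from a glucagonoma. The groups were alphaIRS1KD cells, infected with a lentivirus that carried an shRNA against IRS1, alphaIRS2KD cells, infected with one against IRS2, and control cells, infected with a nonsilencing shRNA (aIRS1KD, aIRS2KD and Control in the sample labels). All 3 groups had gone through puromycin selection, and each is 1 stable line, so a line and its shRNA cannot be told apart. Each line was profiled on 3 arrays of the Affymetrix Mouse Gene 2.0 ST design, and whether the cells had received insulin before RNA was taken is not given in the sources used here. The values are RMA signals on the log2 scale, on which a difference of 1 is a doubling.

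In the pathway as it is known from insulin target tissues, insulin or IGF1 activates its receptor tyrosine kinase, which phosphorylates IRS proteins and other docking proteins. Phosphorylated IRS proteins recruit PI3K through its regulatory subunits, and the catalytic subunit then makes the membrane lipid PIP3. PIP3 brings the kinase PDK1 and its target AKT together at the membrane, while lipid phosphatases such as SHIP2 remove phosphate from PIP3, and active AKT phosphorylates substrates that include GSK3, TBC1D4 and the FOXO transcription factors. In pancreatic alpha cells insulin restrains glucagon secretion.

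The line labels held at the transcript level, since the targeted gene was lowest in its own line. Gcg, the glucagon gene and the defining alpha-cell marker, had log2 signals of 13.21 to 13.25 over the 9 arrays. Array medians lay between 5.03 and 5.11, and array maxima between 13.53 and 13.61. By correlation over all probes, each array was closest to another array of its own line, except replicate 3 of alphaIRS2KD, which was closest to replicate 2 of alphaIRS1KD. The mean log2 signal of 6 beta-cell markers was 5.71 to 5.78 on alphaIRS1KD arrays, 5.74 to 6.09 on alphaIRS2KD arrays and 5.65 to 5.75 on control arrays. The marker Iapp had log2 signals of 5.11, 6.35 and 6.44 in alphaIRS2KD cells, against 4.86, 4.61 and 4.86 in control cells. Its difference was not called (adjusted p = 0.12, limma). Ins2, an insulin gene, had log2 signals of 4.37, 4.88 and 5.09 in alphaIRS2KD cells, against 4.06, 4.23 and 3.90 in control cells. The Ins2 difference of 0.72 was not called (adjusted p = 0.088, limma), and Ins2 lay below the array median on all 9 arrays. The part of these markers in the differences that follow was not tested. Of 8 measured alpha-cell markers, limma called 3 higher and 2 lower against control in alphaIRS1KD cells (all genes 2.98% and 3.68%). The higher ones were Irx1 (difference 0.51), Irx2 (0.39) and Pax6 (0.32). The lower ones were Ttr (-0.98, adjusted p = 2.8e-05, limma) and Chga (-0.50, adjusted p = 0.0013). In alphaIRS2KD cells limma called 1 higher and 0 lower (all genes 0.893% and 0.694%). Markers of beta cells (6 measured), delta and PP cells (3), exocrine pancreas (5) and endothelium, stroma and immune cells (5) gave no limma call in any comparison. At an unadjusted limma p under 0.05, 1 of these markers differed between alphaIRS1KD and control cells and 5 between alphaIRS2KD and control cells. Of all 22180 genes, 1939 were higher and 2025 lower at this threshold in alphaIRS1KD cells, and 1227 and 1170 in alphaIRS2KD cells. The methods' t-test (an unpaired Student test) with adjustment also called 0 of these markers. Nothing says that the 3 arrays of a line came from separate cultures, so each p-value reflects the spread between arrays alone.

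For the 4 genes below, the 250 bases before the transcription start are shown, since these are both targeted genes, the gene that was called in both lines (Inppl1) and the gene with the largest increase (Tbc1d4). The sequences come from RefSeq on build GRCm38.p6, 5′ to 3′ on the strand of the gene, and capitals mark the letters CAAAACA (an insulin response element core, which reads TGTTTTG on the opposite strand) or CACGTG (an E-box).
Irs1, chr1:82291440-82291689, minus strand: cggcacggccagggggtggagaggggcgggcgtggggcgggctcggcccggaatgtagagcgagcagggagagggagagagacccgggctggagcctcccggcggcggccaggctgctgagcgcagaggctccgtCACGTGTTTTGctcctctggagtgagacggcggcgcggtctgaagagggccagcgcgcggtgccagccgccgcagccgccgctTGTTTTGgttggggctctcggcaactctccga
Irs2, chr8:11008930-11009179, minus strand: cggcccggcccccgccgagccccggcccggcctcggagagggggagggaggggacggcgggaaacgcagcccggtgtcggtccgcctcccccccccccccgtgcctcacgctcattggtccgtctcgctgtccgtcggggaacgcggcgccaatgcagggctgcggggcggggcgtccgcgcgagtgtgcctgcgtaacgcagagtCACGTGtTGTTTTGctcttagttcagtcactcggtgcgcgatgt
Inppl1, chr7:101838227-101838476, minus strand, the start farthest upstream of 2: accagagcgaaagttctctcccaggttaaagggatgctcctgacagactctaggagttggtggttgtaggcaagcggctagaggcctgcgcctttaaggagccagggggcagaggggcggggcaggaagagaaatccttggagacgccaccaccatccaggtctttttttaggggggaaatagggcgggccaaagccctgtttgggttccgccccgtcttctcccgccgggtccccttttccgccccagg
Tbc1d4, chr14:101609192-101609441, minus strand: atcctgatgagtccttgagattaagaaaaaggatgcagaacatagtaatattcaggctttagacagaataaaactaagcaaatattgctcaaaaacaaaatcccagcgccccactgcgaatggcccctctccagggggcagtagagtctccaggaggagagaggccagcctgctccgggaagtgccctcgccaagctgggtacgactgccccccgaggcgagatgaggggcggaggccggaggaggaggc

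The Irs1 window held TGTTTTG at 111 to 105 and at 32 to 26 bases before the start, and CACGTG at 115 to 110 bases, which overlaps the first TGTTTTG by 2 letters. The Irs2 window held TGTTTTG at 37 to 31 bases and CACGTG at 44 to 39 bases. Inppl1 and Tbc1d4 had neither in these windows. Both strands were searched in 32851 RefSeq promoter windows of this length, of which 5.56% held CAAAACA and 6.02% held CACGTG. Among the 36 listed genes with an entry, CAAAACA was found for 5 (Gab1, Irs1, Irs2, Irs4 and Sh2b1) and CACGTG for 4 (Irs1, Irs2, Irs4 and Sh2b3). The FOXO binding letters GTAAACA were found for Akt1 and Pik3cg, against 3.17% of all windows, and the STAT letters TTCNNNGAA for Akt2, Gab1 and Socs3, against 7.02%. A listed gene was counted if any of its windows held the letters, whereas the percentages are shares of single windows. The gene counts and these percentages are therefore unlike units and cannot be compared directly. A match is a description of letters and was not tested for binding.

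In alphaIRS1KD against control cells, 2 of the 37 genes (5.41%) were higher, beside 2.98% of all 22180 genes tested, and 1 gene (2.70%), the targeted Irs1, was lower, beside 3.68% of all genes. The median difference was 0.03, against 0.01 over all genes. In alphaIRS2KD against control cells, 3 genes (8.11%) were higher, beside 0.893% of all genes, and 1 gene, the targeted Irs2, was lower, beside 0.694%. The median difference was 0.02, against -0.00 over all genes. With counts of 1 to 3 genes these shares are descriptions, and both comparisons use the same control arrays. Between the lines, alphaIRS1KD against alphaIRS2KD, 1 gene was higher (Irs2), beside 1.71% of all genes, and 2 were lower (Irs1 and Tbc1d4), beside 2.42%. Thus Tbc1d4 is the only gene on the list, apart from both targets, for which the response of the lines differed by the direct test. Pik3r3 missed its threshold there (difference 0.34, adjusted p = 0.066) and passed in 7 of 22 alternative settings.

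Among the substrates and docking proteins, only the shRNA targets Irs1 and Irs2 were called, and lowering them was the aim of the design. Irs1, which couples the receptor to PI3K, had log2 signals of 7.16, 7.12 and 7.22 in alphaIRS1KD cells, 8.10, 8.16 and 8.01 in alphaIRS2KD cells, and 8.06, 8.09 and 8.07 in control cells. The alphaIRS1KD arrays lay below all others, while the alphaIRS2KD and control arrays overlapped. The difference between alphaIRS1KD and control cells was -0.91 (SE 0.06, 95% interval -1.03 to -0.78, adjusted p = 3.2e-05, limma), or 1.88-fold lower. Averaging this probe with a dimmer Irs1 probe gave -0.60. In alphaIRS2KD cells the Irs1 difference from control was 0.02 (95% interval -0.11 to 0.14, adjusted p = 0.95).

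Irs2, a substrate whose gene is a known FOXO target in liver, had log2 signals of 10.44, 10.56 and 10.51 in alphaIRS1KD cells, 10.09, 10.02 and 10.11 in alphaIRS2KD cells, and 10.72, 10.64 and 10.58 in control cells. The 3 groups did not overlap, with alphaIRS2KD lowest and control highest. Against control, the alphaIRS2KD signal was 1.49-fold lower (difference -0.58, SE 0.06, adjusted p = 0.0017, limma). Over all alternative settings this difference stayed between -0.61 and -0.54. Its difference of -0.15 in alphaIRS1KD cells (95% interval -0.28 to -0.01) missed the threshold at an adjusted p of 0.23. Neither substrate transcript was called higher than control in the line with a knockdown of the other. The other docking genes were Irs3, Irs4, Gab1 and Shc1, and their differences from control lay between -0.09 and 0.11 in both lines. Gab1 and Irs4 stayed below the array median on all 9 arrays, where a change would be hard to see.

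**Figure D1:**
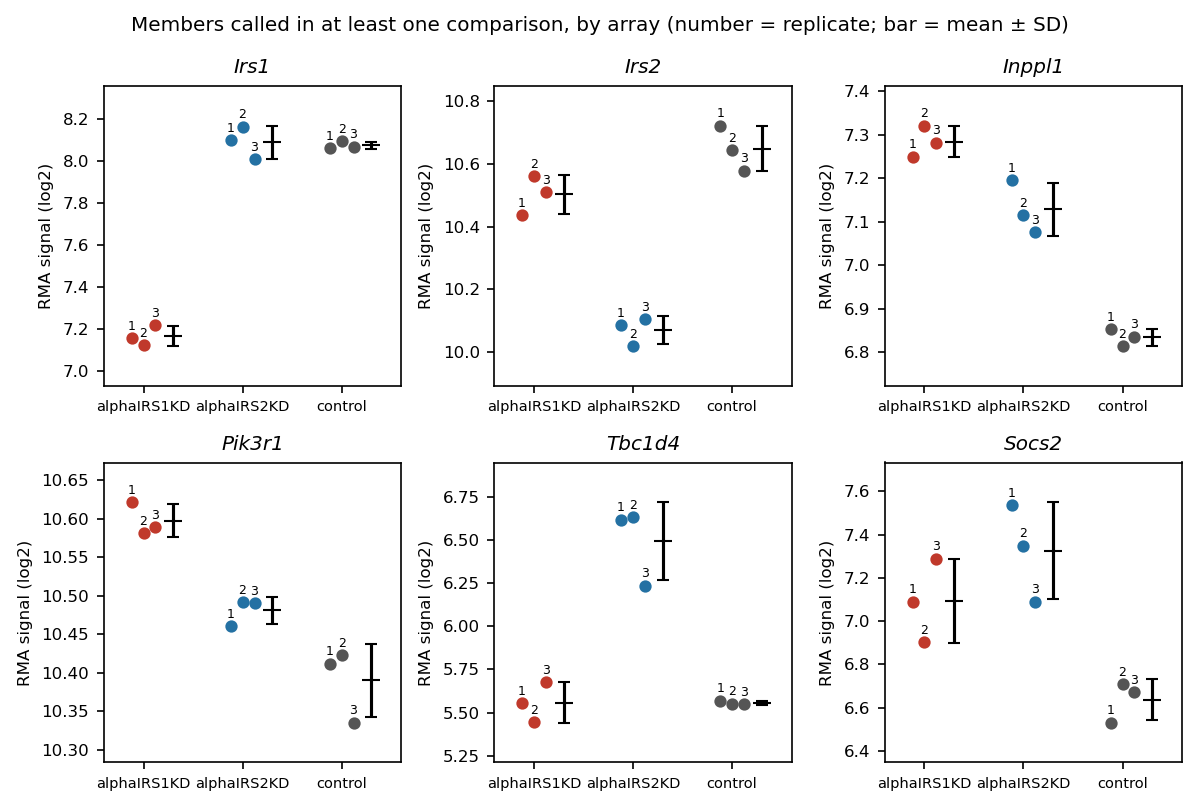
Log2 RMA signal of the 6 genes that passed the test in at least 1 comparison, for each array of alphaIRS1KD, alphaIRS2KD and control cells; points are arrays numbered by replicate, bars are mean ± SD of 3 arrays, and axes do not start at 0. Inppl1 and Socs2 lie above control in both knockdown lines, whereas Tbc1d4 is high in alphaIRS2KD cells only, at 6.62, 6.63 and 6.24.

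Inppl1 encodes SHIP2, a phosphatase that removes a phosphate from PIP3. Its log2 signals were 7.25, 7.32 and 7.28 in alphaIRS1KD cells, 7.20, 7.12 and 7.08 in alphaIRS2KD cells, and 6.85, 6.81 and 6.84 in control cells. Every array of either knockdown line lay above every control array. Against control, Inppl1 was 1.37-fold higher in alphaIRS1KD cells (difference 0.45, SE 0.05, adjusted p = 9.3e-04, limma) and 1.23-fold higher in alphaIRS2KD cells (difference 0.29, SE 0.05, adjusted p = 0.026). The difference of 0.15 between the knockdown lines (95% interval 0.04 to 0.27) did not pass the test (adjusted p = 0.16). The alphaIRS2KD call was lost without any 1 control array, without replicate 2 or 3 of alphaIRS1KD, or without replicate 1 or 2 of alphaIRS2KD (adjusted p up to 0.11), although the difference stayed between 0.26 and 0.32. Without replicate 3 of alphaIRS2KD it was 0.32. The related gene Inpp5d, which encodes SHIP1 and is known mainly from blood cells, was below the array median on all 9 arrays, with log2 signals of 3.46 to 3.98.

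Among 7 PI3K subunit genes, 1 passed the test. Pik3r1, which encodes the p85 alpha subunit, had log2 signals of 10.62, 10.58 and 10.59 in alphaIRS1KD cells, 10.46, 10.49 and 10.49 in alphaIRS2KD cells, and 10.41, 10.42 and 10.33 in control cells. The groups formed 3 steps without overlap. Against control, the alphaIRS1KD signal was 1.15-fold higher (difference 0.21, SE 0.05, adjusted p = 0.033, limma), and its difference of 0.09 in alphaIRS2KD cells did not pass (adjusted p = 0.55). Leaving out any control array, any alphaIRS1KD array or replicate 1 of alphaIRS2KD ended the call (adjusted p up to 0.12), with differences of 0.18 to 0.22. Pik3r3, which encodes the p55 gamma subunit, had log2 signals of 8.48, 8.48 and 8.40 in alphaIRS1KD cells, 8.13, 8.28 and 7.93 in alphaIRS2KD cells, and 8.11, 8.16 and 8.21 in control cells. Its alphaIRS1KD arrays lay above all others, but the difference of 0.30 from control missed the threshold (adjusted p = 0.086) and passed in 10 of 22 alternative settings. The third regulatory gene, Pik3r2, differed from control by 0.03 in alphaIRS1KD and 0.02 in alphaIRS2KD cells. The catalytic subunit genes Pik3ca, Pik3cb, Pik3cd and Pik3cg differed from control by -0.07 to 0.10 in either line. The Pik3cg probe was below the array median on all 9 arrays.

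Tbc1d4 encodes a Rab GTPase-activating protein, also called AS160, that AKT phosphorylates and that restrains vesicle traffic in fat and muscle. Its log2 signals were 5.55, 5.44 and 5.68 in alphaIRS1KD cells, 6.62, 6.63 and 6.24 in alphaIRS2KD cells, and 5.57, 5.55 and 5.55 in control cells. All alphaIRS2KD arrays were above all others, with replicate 3 the lowest of them, and the alphaIRS1KD and control arrays overlapped. Tbc1d4 was 1.92-fold higher in alphaIRS2KD than in control cells (difference 0.94, SE 0.11, adjusted p = 0.0034, limma), and its difference in alphaIRS1KD cells was 0.00 (95% interval -0.24 to 0.25). In the direct test of alphaIRS1KD against alphaIRS2KD cells the difference was -0.94 (adjusted p = 0.0015). Without replicate 3 the alphaIRS2KD difference was 1.07.

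None of the receptor or kinase genes passed the test. Insr, the insulin receptor gene, had a difference from control of 0.06 in alphaIRS1KD cells (adjusted p = 0.57) and 0.02 in alphaIRS2KD cells (adjusted p = 0.91). Igf1r, which encodes the IGF1 receptor, differed by -0.04 in alphaIRS1KD and 0.06 in alphaIRS2KD cells, but its probe stayed below the array median on all 9 arrays. Akt1 had log2 signals of 9.95, 10.05 and 10.08 in alphaIRS1KD cells, 9.97, 9.97 and 9.89 in alphaIRS2KD cells, and 9.84, 9.78 and 9.89 in control cells. All knockdown arrays lay above all control arrays, though replicate 3 of alphaIRS2KD and of control differed only in the third decimal, and neither the alphaIRS1KD difference of 0.19 (adjusted p = 0.091) nor the alphaIRS2KD difference of 0.11 (adjusted p = 0.55) passed the test. Akt2 differed from control by 0.03 in alphaIRS1KD and -0.01 in alphaIRS2KD cells (95% intervals -0.09 to 0.15 and -0.13 to 0.11). Pdpk1, which encodes the AKT-activating kinase PDK1, and the AKT substrate gene Gsk3b differed by -0.02 to 0.03. The AKT phosphatase genes Phlpp1 and Phlpp2 differed by -0.07 to 0.04. Phlpp1 was lower on every knockdown array than on every control array, without passing the test in either line (adjusted p = 0.51 in alphaIRS1KD and 0.78 in alphaIRS2KD).

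SOCS proteins are induced by cytokine signaling through STAT factors and feed back on receptors, and SOCS1 and SOCS3 can also bind the insulin receptor or IRS proteins. Socs2 had log2 signals of 7.09, 6.90 and 7.29 in alphaIRS1KD cells, 7.54, 7.35 and 7.09 in alphaIRS2KD cells, and 6.53, 6.71 and 6.67 in control cells. All knockdown arrays lay above all control arrays, and the knockdown lines overlapped each other. Socs2 was 1.61-fold higher in alphaIRS2KD than in control cells (difference 0.69, SE 0.13, adjusted p = 0.036, limma), and the difference of 0.46 in alphaIRS1KD cells missed the threshold (adjusted p = 0.076). A second, dimmer Socs2 probe had differences of 0.01 in alphaIRS1KD and 0.03 in alphaIRS2KD cells, and the mean of both probes gave 0.36 in alphaIRS2KD cells. The call held for that mean (adjusted p = 0.046). The alphaIRS2KD call was lost without any 1 control array, replicate 1 of alphaIRS1KD, or replicate 1 or 2 of alphaIRS2KD (adjusted p up to 0.14), and without replicate 3 of alphaIRS2KD the difference was 0.81. Cish, a close relative of Socs2, had log2 signals of 5.86, 5.87 and 5.86 in alphaIRS1KD cells, 5.53, 5.90 and 5.81 in alphaIRS2KD cells, and 5.25, 5.56 and 5.72 in control cells. Its alphaIRS1KD arrays did not overlap with control, and the difference of 0.36 did not pass the test (adjusted p = 0.17), although the mean of its probes passed at 0.29 (adjusted p = 0.025). Socs1 and Socs3 had differences between -0.10 and -0.02.

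**Figure D2:**
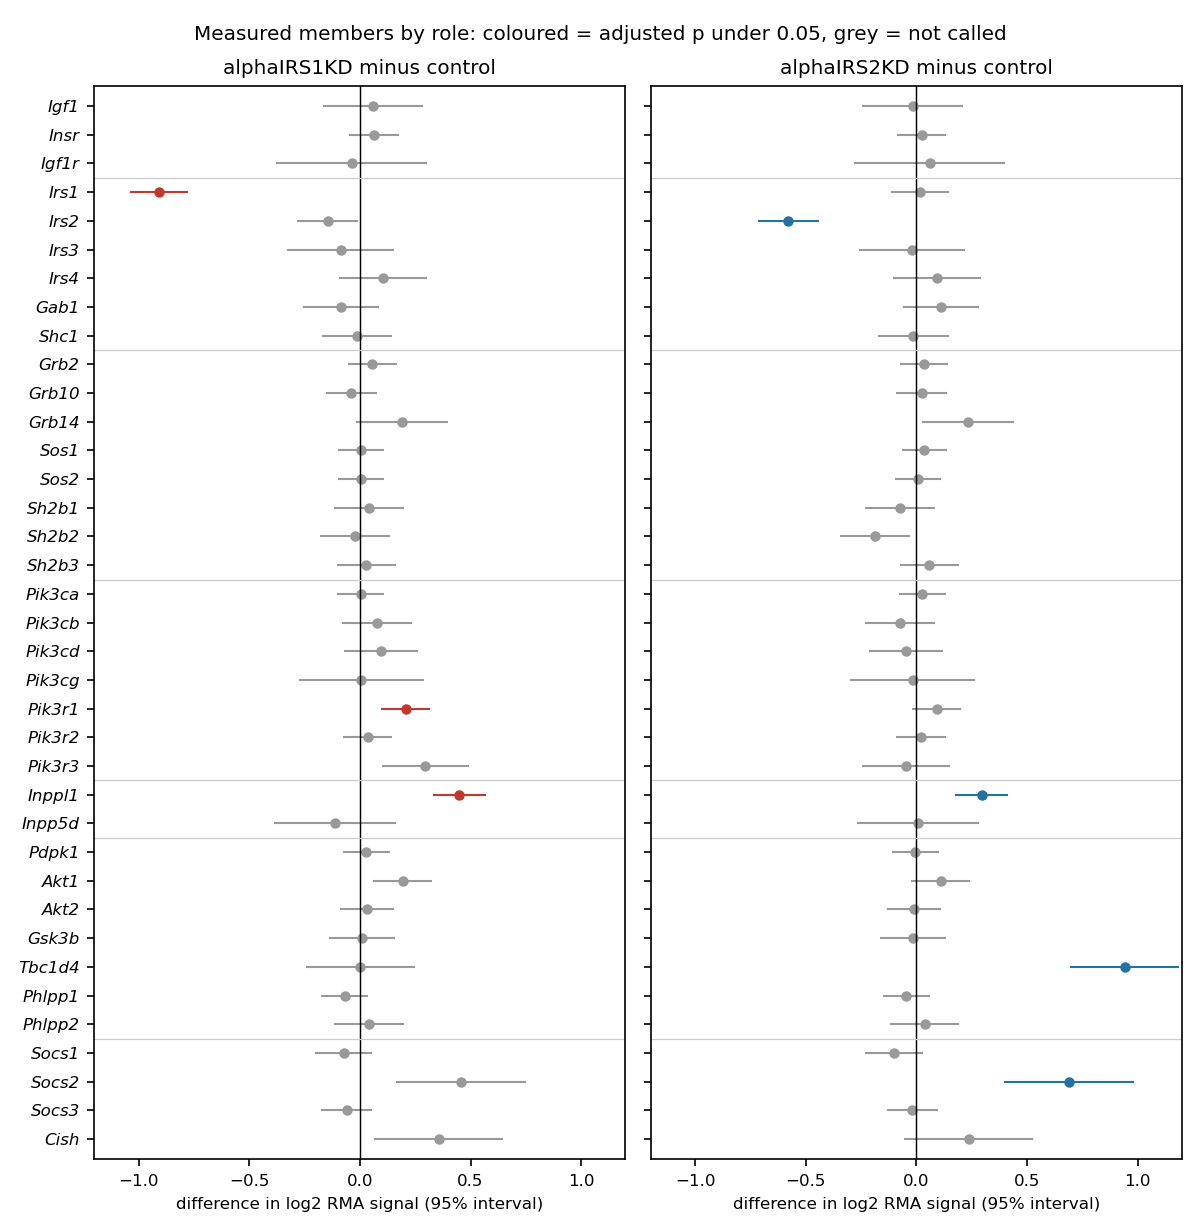
Difference in log2 RMA signal from control for the 37 measured genes, ordered by role, in alphaIRS1KD cells on the left and alphaIRS2KD cells on the right; points are limma estimates, lines are 95% intervals and coloured points have an adjusted p under 0.05. Most intervals are centred near 0, and Inppl1 is the one coloured point that both panels share.

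The adaptors and exchange factors gave no limma call in any of the 3 comparisons, nor any under the methods' t-test even without adjustment. At an unadjusted p under 0.05, limma had 0 of these 8 genes in alphaIRS1KD against control cells and 1 higher and 1 lower in alphaIRS2KD against control cells. At that threshold 1939 of all 22180 genes were higher and 2025 lower in alphaIRS1KD cells, and 1227 and 1170 in alphaIRS2KD cells. Grb2 and the Ras exchange factor genes Sos1 and Sos2, which link the receptor to the ERK pathway, differed from control by 0.00 to 0.06. Grb10, which encodes an inhibitor of the receptor kinase and is imprinted, differed by -0.04 in alphaIRS1KD and 0.02 in alphaIRS2KD cells. The related inhibitor gene Grb14 had differences of 0.19 (adjusted p = 0.32) and 0.23 (adjusted p = 0.36) in these lines, and its knockdown and control arrays overlapped. The Sh2b family encodes adaptors of receptor tyrosine kinases and JAK kinases. Sh2b2 had log2 signals of 5.20, 5.18 and 5.41 in alphaIRS2KD cells, against 5.49, 5.43 and 5.42 in control cells, a difference of -0.19 that missed the threshold (adjusted p = 0.33) and passed only without replicate 3 of alphaIRS2KD (difference -0.26, adjusted p = 0.042). Igf1, the ligand gene on the list, had differences of 0.06 in alphaIRS1KD and -0.02 in alphaIRS2KD cells.

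Arrays that did not overlap were more frequent than calls. In alphaIRS1KD against control cells, 7 genes were higher on all alphaIRS1KD arrays than on all control arrays and 3 were lower, beside 12.4% and 13.0% of all genes. In alphaIRS2KD against control cells these counts were 5 and 3, beside 6.94% and 6.80% of all genes. Between alphaIRS1KD and alphaIRS2KD they were 8 and 3, beside 8.92% and 9.49%, and the 8 included Insr, Sh2b1, Sh2b2 and Pik3cd, whose differences of 0.04 to 0.16 did not pass the test. Grb10 was among the 3 lower ones, with a difference of -0.06.

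**Figure D3:**
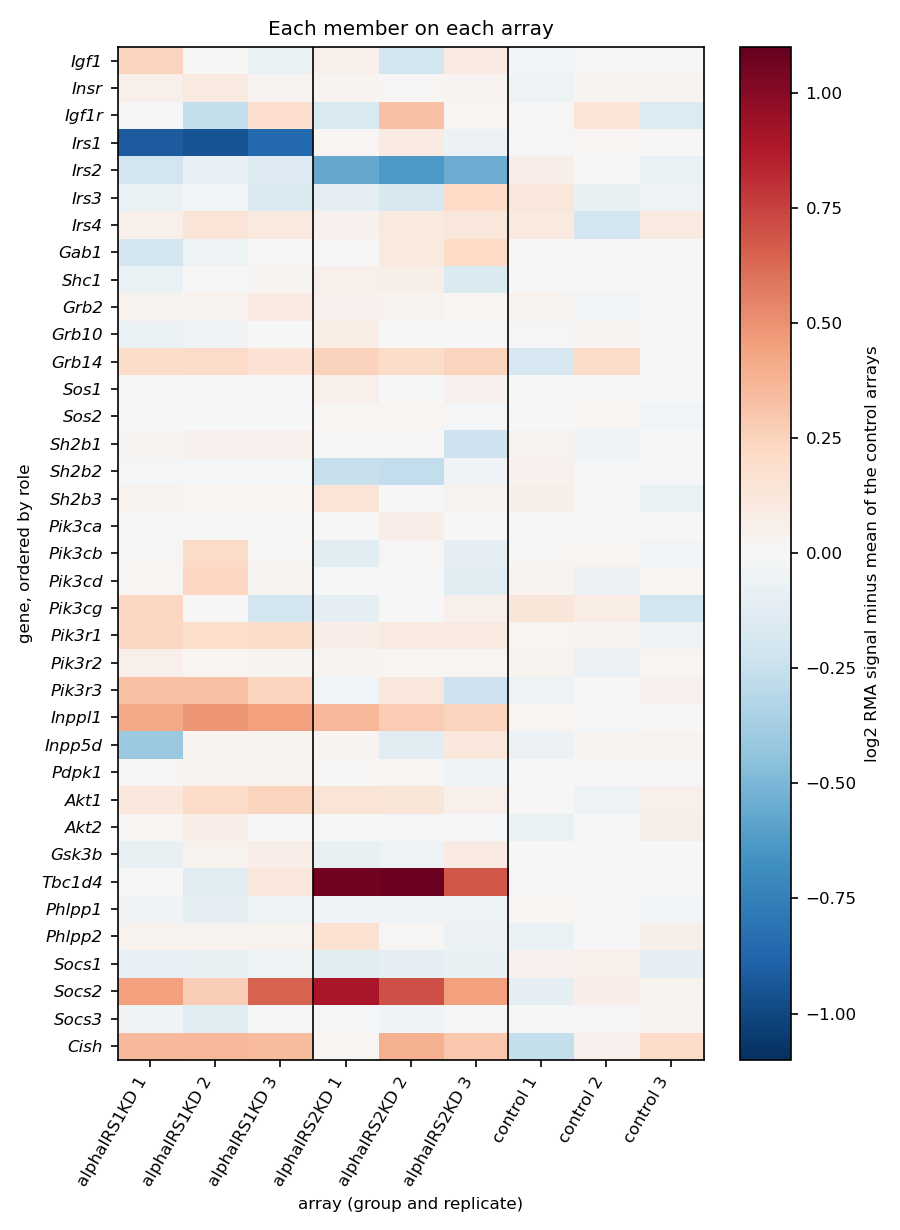
Log2 RMA signal of each of the 37 genes minus its mean over the control arrays, with genes in rows by role and the 3 alphaIRS1KD, 3 alphaIRS2KD and 3 control arrays in columns; red is higher and blue lower. Irs1 is low on all alphaIRS1KD arrays and Irs2 on all alphaIRS2KD arrays, and the red of Tbc1d4 and Socs2 is paler in replicate 3 of alphaIRS2KD than in replicates 1 and 2.

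For the genes that were not called, the arrays set bounds on what could have been missed. Against control, 34 genes were not called in alphaIRS1KD cells, and 26 of them had a 95% interval within 0.3 of 0. In alphaIRS2KD cells 33 were not called, and 29 had such an interval. Exact repeats of a value among the 9 arrays were found for 25 of the 37 genes and for 47.3% of the 41345 probes. Gab1 and Shc1 had the same value on all 3 control arrays, and Sos2, Sh2b2, Pik3ca and Phlpp2 on all 3 alphaIRS1KD arrays. The between-array SD is 0 in these cases, and the reason for the repeats was not tested.

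Other genes of the pathway, taken from a list of 53 of which 46 were measured, were counted in the same way. In alphaIRS1KD against control cells 3 of these were higher and 6 lower, beside 2.98% and 3.68% of all genes. In alphaIRS2KD against control cells 1 was higher and 1 lower, beside 0.893% and 0.694% of all genes, and the difference between these counts was not tested. In alphaIRS1KD cells the lower genes included the adaptor gene Shc3 (difference -0.32, adjusted p = 0.018, limma) and the ubiquitin ligase gene Cblb (-0.28, adjusted p = 0.023). Of 22 alternative settings, Shc3 lost its call in 8 and Cblb in 9. With 1 array left out, their adjusted p was at most 0.073 and 0.089. Gab2, a docking protein related to Gab1, had log2 signals of 8.76, 8.69 and 8.74 in alphaIRS1KD cells, 8.57, 8.51 and 8.50 in alphaIRS2KD cells, and 8.13, 8.19 and 8.10 in control cells. The 3 groups did not overlap, with control lowest. The differences from control were 0.59 in alphaIRS1KD (adjusted p = 1.9e-04, limma) and 0.38 in alphaIRS2KD cells (adjusted p = 0.0063).

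Dok5, a docking protein that the insulin receptor can phosphorylate, had log2 signals of 5.79, 5.94 and 5.86 in alphaIRS1KD cells, 5.28, 5.50 and 5.35 in alphaIRS2KD cells, and 4.86, 5.03 and 5.06 in control cells. The alphaIRS1KD signal was 1.84-fold that of control (difference 0.88, adjusted p = 2.6e-04) and exceeded that of alphaIRS2KD by 0.49 (adjusted p = 0.0097). Its difference of 0.39 in alphaIRS2KD cells just missed the threshold (adjusted p = 0.052). Shc2, an adaptor of receptor tyrosine kinases known from neurons, was 1.65-fold higher than control in alphaIRS1KD cells (adjusted p = 0.0014), and its difference of 0.29 in alphaIRS2KD cells did not pass (adjusted p = 0.21).

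Of the 6 lower genes, Sgk2, a kinase gene related to AKT, was lower in both lines. It had log2 signals of 6.26, 6.22 and 6.43 in alphaIRS1KD cells, 6.28, 6.16 and 6.32 in alphaIRS2KD cells, and 6.88, 6.68 and 6.82 in control cells. The knockdown arrays were all below the control arrays, by 1.41-fold in alphaIRS1KD (adjusted p = 0.0059, limma) and 1.45-fold in alphaIRS2KD cells (adjusted p = 0.012). Tbc1d1, the closest relative of Tbc1d4, was lower in alphaIRS1KD cells (difference -0.36, adjusted p = 0.014), and its difference in alphaIRS2KD cells was 0.04 (adjusted p = 0.89). The mean of all Tbc1d1 probes gave -0.14 in alphaIRS1KD cells, which did not pass (adjusted p = 0.25). Trib1, a pseudokinase gene, was lower in alphaIRS1KD cells (difference -0.46, adjusted p = 0.019). Its difference in alphaIRS2KD cells was -0.26 (adjusted p = 0.32). Among 13 measured genes of insulin and IGF ligands, receptors and binding proteins, limma called none in any comparison. Before adjustment, its p was under 0.05 for 2 that were higher in alphaIRS1KD than in control cells (Igfbp4 and Igfbpl1). In alphaIRS2KD cells it was under 0.05 for 1 that was higher (Ins2) and 1 that was lower (Insrr). Of all 22180 genes, 1939 were higher and 2025 lower by this measure in alphaIRS1KD cells, and 1227 and 1170 in alphaIRS2KD cells. The methods' t-test with adjustment called 0 of the 13 genes.

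FOXO target genes are a readout of AKT activity in other tissues, since active AKT keeps FOXO out of the nucleus. Of 22 measured genes on a list of such targets, which includes Irs2 and Insr, alphaIRS1KD cells had 3 higher and 1 lower than control, and 0 were higher and 4 lower in alphaIRS2KD cells, where 1 of the 4 is the targeted Irs2. The shares of all genes were 2.98% higher and 3.68% lower in alphaIRS1KD, and 0.893% higher and 0.694% lower in alphaIRS2KD cells. Klf15, a transcription factor of the fasting response, had log2 signals of 7.26, 7.19 and 7.08 in alphaIRS1KD cells, 6.43, 6.48 and 6.36 in alphaIRS2KD cells, and 6.61, 6.43 and 6.36 in control cells. Only the alphaIRS1KD arrays stood above the others, 1.63-fold higher than control (adjusted p = 8.0e-04, limma). Ccng2, which encodes cyclin G2, was 1.36-fold above control in alphaIRS1KD cells (adjusted p = 0.0056), and its difference in alphaIRS2KD cells was -0.03 (adjusted p = 0.91). Pdk4, which inhibits pyruvate dehydrogenase, was higher than control in alphaIRS1KD cells (difference 0.32, adjusted p = 0.0076), and its difference in alphaIRS2KD cells was 0.12 (adjusted p = 0.48).

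Sesn3, which encodes a stress-induced inhibitor of mTORC1, was lower in both lines, with log2 signals of 10.63, 10.65 and 10.65 in alphaIRS1KD cells, 10.65, 10.68 and 10.60 in alphaIRS2KD cells, and 10.96, 11.00 and 10.94 in control cells. The differences were -0.32 in alphaIRS1KD (adjusted p = 0.0037) and -0.32 in alphaIRS2KD cells (adjusted p = 0.012). Cdkn1a, which encodes the cell cycle inhibitor p21, was at 8.81, 8.65 and 8.49 in alphaIRS2KD cells, against 9.08, 9.32 and 9.28 in control cells, and was 1.49-fold lower there (adjusted p = 0.023). Txnip, a glucose-induced thioredoxin inhibitor, was 1.27-fold lower in alphaIRS2KD cells (adjusted p = 0.028). In alphaIRS1KD cells the differences of these genes were -0.09 and -0.14 and did not pass the test. Between the lines, 4 of the 22 genes were higher in alphaIRS1KD than in alphaIRS2KD cells, and 0 were lower, beside 1.71% and 2.42% of all genes, and 1 of the 4 is the targeted Irs2. These were Irs2, Klf15, Ccng2 and Cdkn1a.

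**Figure D4:**
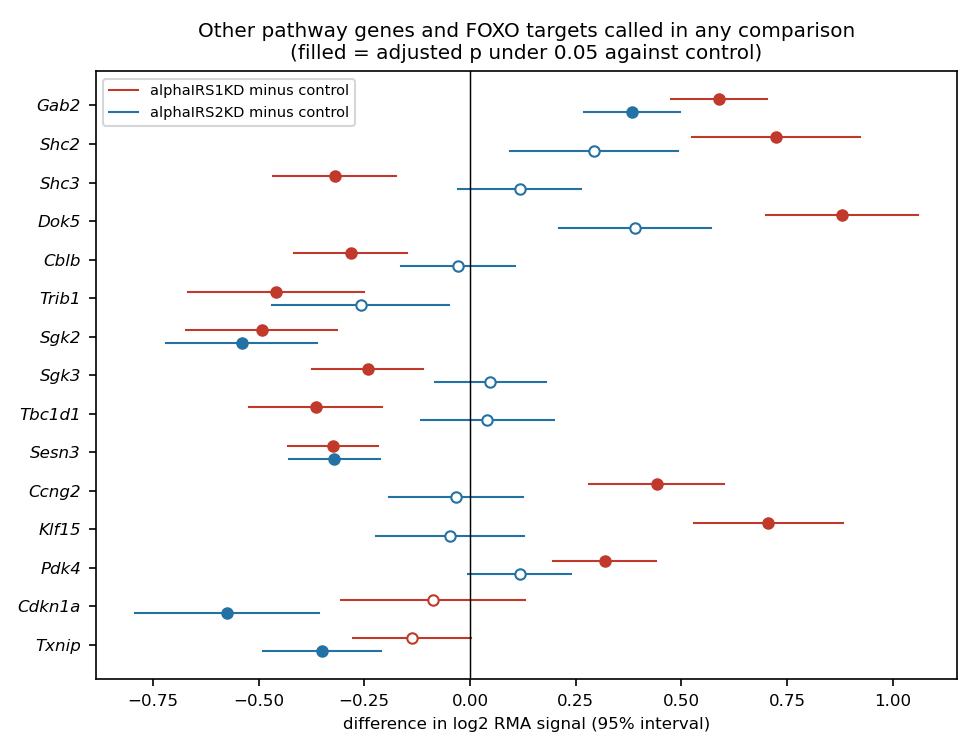
Difference in log2 RMA signal from control for the further pathway genes and FOXO targets that passed the test in any comparison, with alphaIRS1KD in red and alphaIRS2KD in blue; points are limma estimates with 95% intervals, and filled points have an adjusted p under 0.05. Gab2, Sgk2 and Sesn3 are filled in both lines, and Klf15 and Ccng2 are at 0.71 and 0.44 in alphaIRS1KD but near 0 in alphaIRS2KD cells.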

How the data were processed

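Total RNA of alphaIRS1KD, alphaIRS2KD and control alpha TC6 cells was biotin-labelled and run on 3 arrays per group (Affymetrix Mouse Gene 2.0 ST). The authors processed the scans with RMA (named in the submitters' processing notes, with no version) and deposited log2 signals, which are background-corrected, normalized between arrays and summarized per transcript. These values entered the analysis unchanged. Precision is limited by the number of arrays, since arrays have no read depth.

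Of 41345 probes, 23521 carry 1 gene symbol in GEO's platform annotation, 1820 carry several and 16004 carry none. Only the first kind was used. For 1082 genes with several probes the brightest by mean was kept, which gave 22180 genes. One limma model (version 3.58.1, R 4.3.3) held all 9 arrays with a mean per group, and p-values were adjusted by Benjamini-Hochberg over all genes within each of the 3 comparisons. Genes with an adjusted p under 0.05 are those called. Intervals and standard errors are those of limma, and n is 3 arrays per group. The methods name an unpaired Student test, which was run as an alternative.

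The listed genes, the further pathway lists and the markers were chosen with earlier results of these data known. Named genes are Irs1, Irs2, Insr, Igf1r, Akt1 and Akt2, every listed gene called in any comparison, listed genes below the array medians or without overlap between groups, and up to 6 called genes per further list and comparison by size of change. Other listed genes are given by role, and some values of these were named after they were seen. Beyond this rule, Shc3, Cblb and Sgk3 were also named for alphaIRS1KD against control cells. So were some uncalled genes of the ligand and binding protein list, such as Igfbp4. The alternatives were other thresholds, the Student test with and without adjustment, array weights, a trended and robust prior, a replicate block, median centring, quantile normalization, leaving out the dimmest 30% of genes, the mean of all probes, the compared groups alone, and each array left out. The fit was tested on simulated data with known changes and normal noise. Those data held no repeated values, so the test does not cover the repeats found here. Promoter sequences come from RefSeq on GRCm38.p6, matched by symbol. Genes of the lists that no probe with 1 symbol names were not analysed here.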

Additional observations from a re-analysis of the deposited data

Results flagged for a closer look

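By the direct test, alphaIRS1KD against alphaIRS2KD cells, the responses of the knockdown lines differed for 11 genes of the pathway and FOXO target lists. The threshold was an adjusted p under 0.05 from limma, which 1.71% of all 22180 genes passed as higher and 2.42% as lower. Measured were 37 listed pathway genes, 46 further pathway genes and 22 FOXO targets, and Irs2 and Insr are on both the first and last list. Of the 11, the listed pathway genes were Irs1 (difference -0.92, adjusted p = 5.5e-05), Irs2 (0.43, adjusted p = 0.0039) and Tbc1d4 (-0.94, adjusted p = 0.0015). The first pair are the shRNA targets.

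Among the further docking and adaptor genes, Dok5 differed by 0.49 (adjusted p = 0.0097) and Shc2 by 0.43 (adjusted p = 0.029), both higher in alphaIRS1KD cells. Shc3, a further Shc adaptor gene, differed by -0.44 (adjusted p = 0.0057), with log2 signals of 5.05, 5.23 and 5.15 in alphaIRS1KD cells against 5.65, 5.58 and 5.51 in alphaIRS2KD cells. Sgk3, an AKT-related kinase gene, differed by -0.29 (adjusted p = 0.026), and Tbc1d1 by -0.41 (adjusted p = 0.013). Averaged over its probes Tbc1d1 differed by -0.24, which did not pass (adjusted p = 0.060).

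Of the FOXO targets, Klf15 differed by 0.75 (adjusted p = 9.3e-04), Cdkn1a by 0.49 (adjusted p = 0.025) and Ccng2 by 0.48 (adjusted p = 0.0058). Klf15 and Ccng2 were above control in alphaIRS1KD cells, whereas Cdkn1a was below control in alphaIRS2KD cells.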

How the results depend on the processing

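The results were recomputed in 22 alternative settings, 9 of which left out 1 array, and no called difference of a listed, further pathway or FOXO target gene changed direction. The calls of Irs1 in alphaIRS1KD against either other line, and of Gab2, Dok5 and Klf15 in alphaIRS1KD against control cells, held in all of them. Tbc1d4 lost its call only under the methods' t-test with Benjamini-Hochberg adjustment. Pik3r1 in alphaIRS1KD lost its call in 12, Inppl1 in alphaIRS2KD in 13 and Socs2 in alphaIRS2KD in 11. Against control, single arrays left out or other settings also ended the calls of Sgk3 (12 settings), Cblb (9), Shc3 (8), Tbc1d1 (7) and Trib1 (6) in alphaIRS1KD cells. In alphaIRS2KD cells they ended those of Txnip (13), Cdkn1a (9), Sesn3 (6) and Sgk2 (5). Between the lines they ended those of Sgk3 (12), Shc2 (11), Cdkn1a (9) and Tbc1d1 (7).

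In alphaIRS1KD against control cells, the 2 higher listed genes became 1 at an adjusted p under 0.01, with the replicate block or with median centring, 0 with a further minimum of 1.5-fold, and 5 (Akt1, Inppl1, Pik3r1, Pik3r3 and Socs2) at an adjusted p under 0.1, under the methods' t-test without adjustment, with array weights, with a trended and robust prior, with quantile normalization or without the dimmest 30% of genes. Leaving out 1 array gave 1 to 4, the most without replicate 3 of alphaIRS2KD, where Pik3r3 and Socs2 were added. The 1 lower gene became 2 under the unadjusted t-test, with Phlpp1 added, and stayed at 1 whichever array was left out.

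In alphaIRS2KD against control cells, the 3 higher genes became 1 at an adjusted p under 0.01, with the replicate block, with median centring or with the 2 compared groups alone, and 0 under the t-test with adjustment. Leaving out 1 array gave 1 to 3. The 1 lower gene became 0 with the 1.5-fold minimum or under the t-test with adjustment and 2 under the unadjusted t-test, and leaving out 1 array gave 1 to 2, with Sh2b2 added without replicate 3 of alphaIRS2KD.

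In alphaIRS1KD against alphaIRS2KD cells, the 1 higher gene became 2 (Irs2 and Pik3r3) at an adjusted p under 0.1, with array weights, with the trended and robust prior, with quantile normalization or without the dimmest genes, 4 under the unadjusted t-test, and 0 with the 1.5-fold minimum or under the t-test with adjustment. Leaving out 1 array gave 1 to 2. The 2 lower genes became 1 under the t-test with adjustment and stayed at 2 without any 1 array. The cause of these changes was not tested.

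Arrays with the same replicate number did not deviate together over all genes (9 pairs, r of -0.08 to 0.02). For 18 pairs with other numbers, r was -0.04 to 0.07. The main fit therefore did not pair arrays by number. Correlations over all genes cannot show whether arrays shared a culture or batch. Small differences are limited by 3 arrays per line, by 1 line per shRNA, and by probes near background, such as those of Igf1r, Irs4, Gab1, Pik3cg and Inpp5d. Transcript signals do not show protein level or phosphorylation.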
